A study of Mus musculus with 12 samples.

Results

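The 10 Polycomb group genes Ezh1, Ezh2, Eed, Suz12, Jarid2, Bmi1, Ring1, Rnf2, Cbx2 and Cbx7 were taken by symbol from 12098 genes whose promoter methylation was measured in mouse colon epithelium. All 10 were found. Each had 1 RefSeq promoter listed, so the gene value and the promoter value were the same number. The question was whether these regulators of developmental genes were themselves methylated when the DNA methyltransferase Dnmt3b was induced.

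Polycomb proteins are chromatin regulators that hold developmental genes silent in cells that do not use them. Polycomb repressive complex 2 (PRC2) places methyl groups on lysine 27 of histone H3, and Polycomb repressive complex 1 (PRC1) binds that mark and ubiquitinates histone H2A. In the intestine both complexes are known for restraining genes foreign to the epithelium and for controlling cell cycle inhibitors in crypt cells. In human cancers of the colon, genes bound by Polycomb in stem cells are among those that often gain DNA methylation.

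In the induced group, 3 C57BL/6 mice with induced Dnmt3b were kept for 3 months on drinking water that held doxycycline at 0.5 g/l and was replaced at intervals of 3 days. In the control group, 3 C57BL/6 mice drank regular water. Epithelial cells were isolated from each colon, and each mouse gave a library of short MspI fragments (40 to 120 nt) and one of long fragments (120 to 220 nt), 12 in all, by reduced representation bisulfite sequencing. Only the induced mice had doxycycline, so the drug and the induction cannot be told apart, and whether control mice carried the transgene, what drives it and how old the animals were is stated by no label used here. A methylation level is the mean share of methylated CpGs in a promoter, in percent. Differences between levels are given in percentage points.

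The libraries listed 10358 to 10838 genes from short fragments and 7278 to 8108 from long fragments. No read counts are given, so the depth behind each level is unknown, also for those at 0%. Of 15 epithelial marker names 8 were listed, of 15 immune names 1 and of 15 stromal names 6. The 5 epithelial markers in all 6 short-fragment libraries averaged 0.363% ± 0.259 in induced and 0.489% ± 0.635 in control mice (SD, n = 3 each), and the 5 stromal ones 63.2% ± 7.85 and 6.83% ± 0.755 (SD, n = 3 each). Among long fragments the 7 epithelial markers averaged 5.13% ± 0.701 in induced and 3.70% ± 0.416 in control mice, and the 2 stromal ones 66.1% ± 22.5 and 1.77% ± 0.900 (SD, n = 3 each). The epithelial marker Krt18 was at 30.2% in induced and 22.8% in control mice there. Promoter methylation is not expression, so these levels do not count cells. In bulk DNA, full methylation in some cells and partial methylation in all cells cannot be told apart.

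The sequences upstream of 4 of the genes are shown because they carry the contrasts described below. Ring1 and Cbx7 had the highest levels, Jarid2 differed most from its controls among long fragments, and Ezh2 was near 0. Each is the 250 bases before the start of transcription, from RefSeq on GRCm38.p6, and lies on the gene's own strand. Capitals mark the MspI site CCGG, where fragments of these libraries begin and end. The window behind the deposited levels is not given, so these bases need not be all of it.
Ring1, chr17:34024681-34024930, minus strand: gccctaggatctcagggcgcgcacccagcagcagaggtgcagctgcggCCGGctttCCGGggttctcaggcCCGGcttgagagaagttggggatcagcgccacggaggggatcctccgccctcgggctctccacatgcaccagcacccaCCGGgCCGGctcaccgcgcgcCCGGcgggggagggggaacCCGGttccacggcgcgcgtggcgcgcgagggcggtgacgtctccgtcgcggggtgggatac
Cbx7, chr15:79932647-79932896, minus strand: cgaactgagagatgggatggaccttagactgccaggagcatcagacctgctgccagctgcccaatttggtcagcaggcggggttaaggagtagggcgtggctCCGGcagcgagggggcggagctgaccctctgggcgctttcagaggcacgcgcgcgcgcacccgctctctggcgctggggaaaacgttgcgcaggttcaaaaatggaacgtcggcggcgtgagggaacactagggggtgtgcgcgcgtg
Jarid2, first of 2 listed starts, chr13:44730524-44730773, plus strand: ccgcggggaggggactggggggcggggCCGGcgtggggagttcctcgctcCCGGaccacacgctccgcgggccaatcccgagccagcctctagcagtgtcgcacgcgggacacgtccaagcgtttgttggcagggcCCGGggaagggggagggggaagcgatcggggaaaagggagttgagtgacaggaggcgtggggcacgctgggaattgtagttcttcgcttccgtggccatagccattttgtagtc
Ezh2, chr6:47595031-47595280, minus strand: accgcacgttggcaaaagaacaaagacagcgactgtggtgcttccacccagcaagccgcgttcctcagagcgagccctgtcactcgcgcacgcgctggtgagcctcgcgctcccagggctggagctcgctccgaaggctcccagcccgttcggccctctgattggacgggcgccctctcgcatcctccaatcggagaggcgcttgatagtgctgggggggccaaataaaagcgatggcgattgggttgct

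The Ring1 stretch held 7 CCGG sites and 30 CG dinucleotides, the Cbx7 stretch 1 and 23, the Jarid2 stretch 3 and 23, and the Ezh2 stretch 0 and 23. RefSeq promoter windows of 300 bases, which also take in the first bases after the start, were matched for 9 of the 10 genes, all but Cbx2. These 10 windows held 17 to 41 CG dinucleotides, with a median of 27, against a median of 7 over all 32851 RefSeq promoters and 21 over the 12147 promoters of listed genes. The ratio of observed to expected CG had a median of 0.856 among them, 0.384 over all promoters and 0.758 over those of listed genes. CCGG, which reads the same on both strands, was found in 80% of the 10 windows, 52.8% of all promoters of that length and 83.2% of those of listed genes. The 9 matched Polycomb genes were thus CpG-rich, as listed genes mostly were. Cbx2, which rose in the comparison below, is not part of this description. Of other genes near 0 among short fragments, the windows of Suz12, Rnf2 and Bmi1 held 4, 3 and 3 CCGG sites. Those of Eed and Ezh1 held 0. Whether site counts go with methylation level was not tested.

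The Polycomb genes had little promoter methylation in either group, and 1 of 10 rose. In the short fraction Cbx2 rose (limma, adjusted p under 0.05) and none fell, where 27.6% of all 10027 genes rose, 0.0798% fell and 27.7% did either. In the long fraction none of 7 tested rose or fell, where 23.2% of all 6127 genes rose and 0.0163% fell. Unadjusted limma p was under 0.05 for Cbx2 and Rnf2 in the short fraction (0.0011 and 0.0211) and for Jarid2 in the long fraction (0.0184). The share of all genes under that cut was not counted. With M values (log2 ratios of methylated to unmethylated share) Cbx2 and Rnf2 passed among short fragments and Jarid2 among long ones. So did 3113 of 10027 and 1638 of 6127 genes. The median change of the Polycomb genes was 0.125 points among short fragments, beside 0.50 points over all genes. Among long fragments it was 0.0467 points, beside 0.943 points. The change was under 5 points either way for 8 of 10 and 7 of 7 of them, as for 68.1% and 62.2% of all genes. No Polycomb gene had all 3 induced mice below all 3 controls, which 0.908% of short-fraction and 0.277% of long-fraction genes had. None reached an induced mean of 50%, a level reached by 18.5% of short-fraction and 20.4% of long-fraction genes. Since the median gene was higher in induced mice, the fits were repeated with each library centred, by taking off the median difference of its genes from their mean over the 6 libraries. Short-fraction genes then split into 2844 higher and 2368 lower, and long-fraction genes into 1628 higher and 1938 lower. Centring took 0.396 points off every short-fraction and 0.502 points off every long-fraction difference, so a gene that stayed near 0 in both groups turned negative by construction. Lower calls in that setting are therefore not read as changes, and of the Polycomb genes Cbx2 alone was higher in it. With 10 and 7 genes these counts describe the genes and were not tested against the rest.

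**Figure D1:**
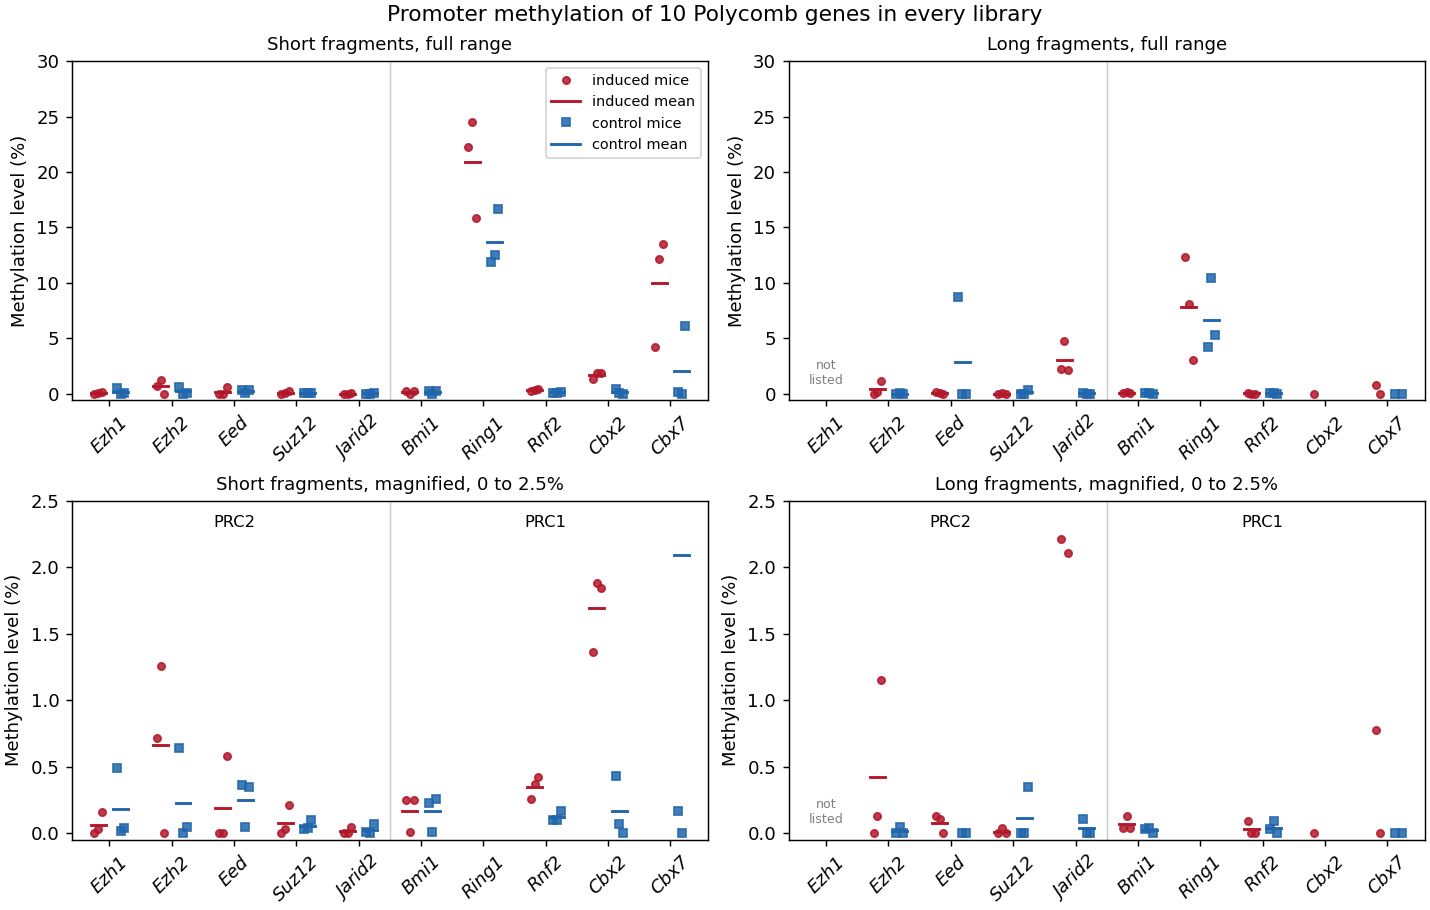
Promoter methylation levels (%) of the 10 Polycomb genes in each of 3 induced and 3 control mice, for short (left) and long (right) fragments, over the full range (top) and magnified (bottom, where values above 2.5% are outside the axis). Points are mice and lines are means of 3 mice; in the short fraction Ring1 (15.84% to 24.53% in induced mice) and Cbx7 (4.24% to 13.51%) stand above the rest, which lie at or under 1.88% in every short-fragment library.

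The 5 PRC2 genes were at or under 1.26% in every short-fragment library, and none of them passed in either fraction. Ezh2 (Gene ID 14056), the main histone methyltransferase of the complex, was at 0.72%, 1.26% and 0% in the 3 induced mice and 0.64%, 0% and 0.05% in the 3 control mice in the short fraction. The groups overlapped, and the difference was 0.43 points (95% interval -0.627 to 1.49, limma adjusted p = 0.568). Among long fragments Ezh2 was at 0%, 0.13% and 1.15% in induced mice and 0%, 0.05% and 0% in control mice. The groups overlapped there too (difference 0.41 points, 95% interval -0.520 to 1.34, limma adjusted p = 0.571).

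Ezh1 (14055), the second methyltransferase and the one used in resting cells, was at 0%, 0.03% and 0.16% in induced mice and 0.49%, 0.02% and 0.04% in control mice among short fragments. No long-fragment library listed it. Eed (13626), which binds the finished H3K27 mark and stimulates the enzyme, was at 0%, 0% and 0.58% in induced mice and 0.36%, 0.05% and 0.35% in control mice among short fragments. Suz12 (52615), a scaffold that the enzyme needs, was at 0%, 0.03% and 0.21% in induced mice and 0.03%, 0.04% and 0.10% in control mice. All of these groups overlapped. The 95% intervals of the difference were -0.540 to 0.300 points for Ezh1, -0.619 to 0.499 for Eed and -0.183 to 0.230 for Suz12, and the limma adjusted p were 0.653, 0.887 and 0.878.

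Among long fragments 1 library set the Eed values apart. Control mouse 1 was at 8.71%, while the induced mice were at 0.13%, 0.11% and 0% and the other control mice at 0%. The difference of -2.82 points did not pass (limma adjusted p = 0.586), and without control mouse 1 it was 0.08 points. Suz12 was at 0%, 0.04% and 0% in induced mice and 0%, 0% and 0.35% in control mice there, and did not pass (95% interval of the difference -0.418 to 0.212 points, limma adjusted p = 0.617). The short-fragment Eed level of control mouse 1 was 0.36%, so its 2 libraries differ for this gene.

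Jarid2 (16468), an accessory subunit that helps to bring PRC2 to its targets, had higher levels among long than among short fragments in induced mice (3.00 points, limma adjusted p = 0.00535). Of the 7 genes in both fractions 3 passed that contrast in induced mice, where 19.8% of 5309 genes did. Jarid2 was higher among long fragments, while Ring1 and Rnf2 were lower (-13.1 and -0.32 points, limma adjusted p = 0.0119 and 0.0250). Among short fragments it was at 0%, 0% and 0.05% in induced mice and 0.01%, 0% and 0.07% in control mice, with a difference of -0.01 points (95% interval -0.142 to 0.122, limma adjusted p = 0.930). The long-fragment levels of Jarid2 were 2.21%, 4.74% and 2.11% in induced mice and 0.11%, 0% and 0% in control mice. All 3 induced mice were above all 3 controls, a pattern that 38.2% of all genes showed in that fraction.

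The long-fragment difference of Jarid2 was 2.98 points (SE 0.819, 95% interval 0.793 to 5.17) and missed the threshold (limma adjusted p = 0.0727). Induced mouse 2 carried the highest value, and without it the difference was 2.12 points and passed (adjusted p = 0.00121). In 1 limma fit over both fractions, with the mouse as a block, it passed as well (adjusted p = 0.00372). So did 1668 of 5309 genes for the long fraction in that fit. The difference between the fractions itself was 2.99 points (SE 0.812) and did not pass (limma interaction, unadjusted p = 0.00546, adjusted p = 0.0840); without induced mouse 2 it passed. None of the 7 genes in both fractions passed that interaction test, where 4.71% of 5309 genes did. RefSeq lists 2 starts for Jarid2. The deposited Jarid2 promoter is named by 1 RefSeq transcript, which was not matched to either start here.

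PRC1 held the member that rose and the members with the highest levels. Cbx2 (12416), a chromodomain protein that reads H3K27 methylation and compacts chromatin, was at 1.36%, 1.88% and 1.84% in induced mice and 0.43%, 0.07% and 0% in control mice among short fragments. The groups did not overlap. It rose by 1.53 points (SE 0.206, 95% interval 0.979 to 2.07, limma adjusted p = 0.00587), to 1.69% ± 0.289 in induced mice, against 0.167% ± 0.231 in control mice (SD, n = 3 each). Its adjusted p was 0.00544 to 0.0331 whichever library was left out.

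The Cbx2 rise was small beside those of other genes. A larger change was seen in many genes, since 59.3% of the 10027 short-fraction genes had a smaller one. With centred libraries the rise was 1.13 points and still passed (limma adjusted p = 0.00992). Among long fragments Cbx2 was listed in 1 library, that of induced mouse 2, at 0%. No comparison could be made there.

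Cbx7 (52609), another chromodomain protein of PRC1 and a repressor of the Cdkn2a locus, was at 4.24%, 12.18% and 13.51% in induced mice and 0.17%, 0% and 6.11% in control mice among short fragments. Induced mouse 1 lay below control mouse 3, so the groups overlapped. The difference of 7.88 points (SE 3.32, 95% interval -0.956 to 16.7) was the largest of the 10 and did not pass (limma adjusted p = 0.197). Without any 1 library it was 6.12 to 10.8 points, and it passed under none of these omissions. The 4 long-fragment libraries that listed Cbx7 gave 0.78% and 0% in induced mice 2 and 3 and 0% in control mice 1 and 3.

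Ring1 (19763), a RING finger protein of the E3 ligase that ubiquitinates histone H2A, was the most methylated of the 10 in both groups. In the short fraction it was at 22.25%, 24.53% and 15.84% in induced mice and 11.86%, 12.48% and 16.67% in control mice. Induced mouse 3 lay below control mouse 3. The difference of 7.20 points (SE 2.84, 95% interval -0.345 to 14.8) did not pass (limma adjusted p = 0.168); without induced mouse 3 it was 9.72 points and passed (adjusted p = 0.0439).

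In the long fraction Ring1 was at 12.32%, 8.08% and 3.04% in induced mice and 4.2%, 10.48% and 5.26% in control mice. The groups overlapped (difference 1.17 points, 95% interval -7.25 to 9.58, limma adjusted p = 0.852). Of genes at 5% or more in control mice, as Ring1 was, 47.8% rose in the short fraction and 37.4% in the long. The sign of the long-fraction difference turned without induced mouse 1 (-1.09 points) or control mouse 1 (-0.0567 points). In induced mice the long-fragment level was 13.1 points below the short-fragment level (SE 2.91), as given above. In control mice it was 7.02 points below and did not pass (limma adjusted p = 0.349, where 7.04% of genes passed). The change with induction was not shown to differ between the fractions (-6.04 points, limma interaction, adjusted p = 0.618).

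Rnf2 (19821), the second ligase of PRC1, also called Ring1B, was at 0.26%, 0.37% and 0.42% in induced mice and 0.10%, 0.10% and 0.17% in control mice among short fragments. The groups did not overlap, as for 39.5% of all genes in that direction. The difference of 0.227 points (SE 0.0653, 95% interval 0.0531 to 0.400, limma adjusted p = 0.0720) did not pass. It is smaller than the 0.396 points that centring takes off, and was -0.17 points in that setting. Without induced mouse 1 it passed (adjusted p = 0.0316). Among long fragments Rnf2 was at 0.09%, 0% and 0% in induced mice and 0.03%, 0.09% and 0% in control mice, with a 95% interval of the difference of -0.153 to 0.133 points (limma adjusted p = 0.956).

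Bmi1 (12151), also called Pcgf4, which activates the ligase and is used as a marker of some intestinal stem cells, was at 0.25%, 0.01% and 0.25% in induced mice and 0.23%, 0.01% and 0.26% in control mice among short fragments. The 95% interval of its difference was -0.30 to 0.307 points (limma adjusted p = 1). The long-fragment levels of Bmi1 were 0.04%, 0.13% and 0.04% in induced mice and 0.03%, 0.04% and 0% in control mice, with a 95% interval of -0.0837 to 0.177 points (limma adjusted p = 0.592).

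**Figure D2:**
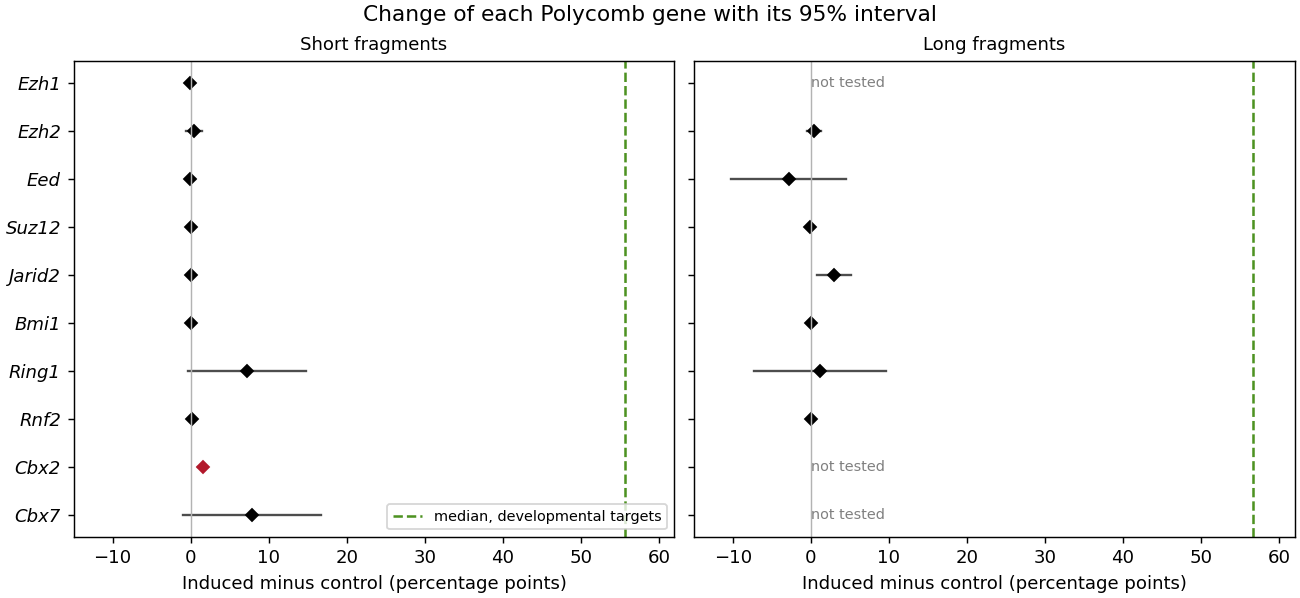
Induced minus control difference (percentage points) of each Polycomb gene with its 95% interval from limma, for short (left) and long (right) fragments; the red diamond marks the gene that rose. The dashed line is the median difference of the developmental targets, 55.6 points for short and 56.7 points for long fragments, and every interval of a Polycomb gene ends at or under 16.7 points.

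By level, Ring1 stood first, Cbx7 next and Cbx2 after it in the induced mice of the short fraction, each without overlap with the next. From Ezh2 downward neighbours in the order overlapped. In control mice Ring1 again stood apart, and every pair of neighbours below it overlapped. In the long fraction Ring1 and Jarid2 led in induced mice and overlapped each other. Jarid2 stood above the next gene, Ezh2. Under 5% were 25 of 30 short-fragment values in induced mice and 26 of 30 in control mice, or 25 of 27 and 26 of 27 without Ring1. Among long fragments these counts were 22 of 24 and 20 of 23, or 21 of 21 and 19 of 20 without Ring1. Over all genes of a library, 62.6% to 63.6% were under 5% in induced and 84.2% to 85.9% in control mice among short fragments. For long fragments these shares were 56.9% to 58.4% and 79.9% to 81.7%. The counts pool genes and mice and were not tested.

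Of the 10 genes 8 were under 5% in all 6 short-fragment libraries and 5 of 7 in all 6 long-fragment libraries. Over all genes these shares were 59.6% and 52.4%. The mean over the genes tested was 3.41% ± 0.570 in induced and 1.70% ± 0.598 in control mice in the short fraction, and 1.64% ± 0.642 and 1.398% ± 0.544 among long fragments (SD, n = 3 each). Over the 5 PRC2 genes the short-fraction mean was 0.203% ± 0.060 in induced and 0.15% ± 0.144 in control mice, and over the 5 PRC1 genes 6.61% ± 1.08 and 3.24% ± 1.21. Of those PRC1 genes, Cbx7 and Ring1 had the largest differences (7.88 and 7.20 points), and neither passed. Means over all genes tested were 17.2% in induced and 4.19% in control mice in the short fraction. For long fragments they were 19.4% and 5.21%.

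By distance over the 6 libraries, the genes with levels closest to those of Cbx7, which had the largest short-fraction difference, were Capn1, Lca5l and Galc, at 6.03, 6.21 and 6.28 points. For Jarid2 in the long fraction they were Sept11, Kdsr and Polr3d, at 0.807, 0.927 and 0.956 points. Of these 6 genes Galc and Sept11 rose (limma adjusted p = 0.0318 and 0.0419). No gene had the same values as a Polycomb gene in all 6 libraries of a fraction.

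The genes that Polycomb is known to repress in development behaved differently in size. On a list of 60 developmental targets, mostly transcription factors, 47 of 57 rose among short and 36 of 45 among long fragments, and none fell. The shares of all genes that rose were 27.6% and 23.2%. Their median level was 60.05% in induced and 1.87% in control mice among short fragments, and 60.2% and 1.73% among long ones. Nkx6-2, a homeobox gene of the neural tube, was at 82.6% ± 3.40 in induced and 1.32% ± 0.901 in control mice, and Tbx5, a heart and forelimb factor, at 83.1% ± 9.79 and 2.06% ± 1.93. Sox1 and Tbx2 had induced means of 79.2% and 81.8% and control means of 0.523% and 4.07% in that fraction.

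Among long fragments the largest differences of this list were those of Nkx6-2, En2, Zic1 and Foxd3, at 75.95 to 78.1 points. The long-fraction count was 21, 23 and 22 without control mouse 1, 2 or 3. Over all long-fraction genes 953, 907 and 902 rose under these omissions, against 1421 with all libraries. Such a rise of developmental genes in these mice was known when the list was written, so it is no independent evidence. The difference in change between the Polycomb genes and their targets was described and not tested.

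**Figure D3:**
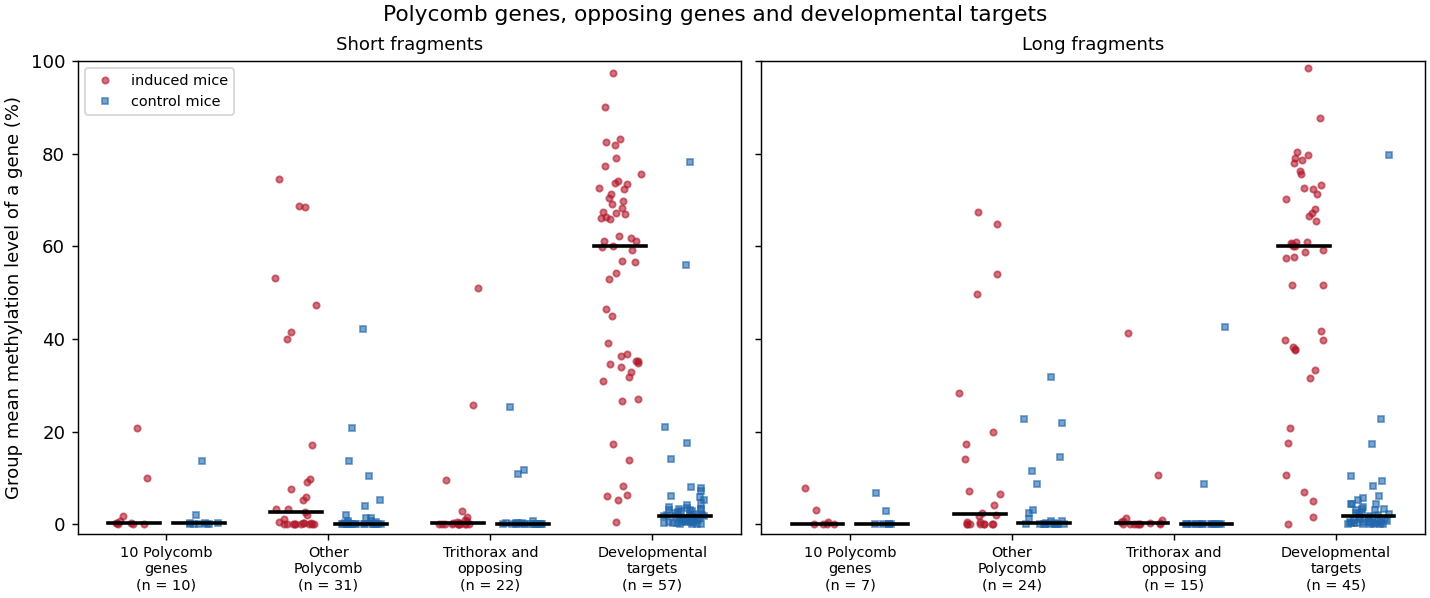
Group mean methylation level (%) of every tested gene in 3 induced (red circles) and 3 control (blue squares) mice, by gene list, for short (left) and long (right) fragments; black lines are medians over genes. The developmental targets have a median of 60.05% in induced and 1.87% in control mice among short fragments, while 8 of the 10 Polycomb genes lie under 2% in both groups.

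Further Polycomb subunits and cofactors were not all low. Of a list of 42, 35 were in the files, and 8 of 31 tested rose among short and 6 of 24 among long fragments, with none lower, beside 27.6% and 23.2% of all genes. Their median change was 1.93 points among short and 1.75 points among long fragments. E130012A19Rik, also called Epop, whose product binds PRC2 and elongin, was at 64.01%, 67.70% and 73.79% in induced mice and 1.24%, 1.44% and 1.32% in control mice among short fragments (limma adjusted p = 0.000267). Auts2, part of a PRC1 variant that activates neuronal genes, was at 53.1% ± 3.67 in induced and 1.90% ± 1.38 in control mice (SD, n = 3 each; limma adjusted p = 0.000283).

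Both rose among long fragments too. E130012A19Rik was at 67.4% ± 15.4 in induced and 11.6% ± 2.79 in control mice, and Auts2 at 49.7% ± 6.99 and 0.68% ± 1.01 (SD, n = 3 each). The long-fraction call of E130012A19Rik was lost without control mouse 1, 2 or 3 (limma adjusted p = 0.0639, 0.0593 and 0.0610). L3mbtl, an MBT-domain gene also called L3mbtl1, was at 74.5% ± 3.74 in induced and 13.6% ± 5.49 in control mice, and Sfmbt2, an MBT-domain gene expressed in placenta, at 41.6% ± 8.42 and 0.233% ± 0.387 (SD, n = 3 each), both among short fragments. E2f6, a factor that recruits a PRC1 variant, rose by 5.26 points there. Its call was lost without induced mouse 3 or control mouse 1, 2 or 3 (limma adjusted p = 0.0570, 0.0817, 0.0858 and 0.0711).

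Pcgf2, a close relative of Bmi1, was at 7.15% ± 3.08 in induced and 0.0233% ± 0.0404 in control mice among long fragments, and Aebp2, a PRC2 cofactor, at 1.91% ± 0.633 and 0.0233% ± 0.0404 (SD, n = 3 each). Pcgf2 lost its call without induced mouse 2 or control mouse 1, 2 or 3 (limma adjusted p = 0.133 to 0.154), and Aebp2 without induced mouse 1 or control mouse 1, 2 or 3 (limma adjusted p = 0.0633 to 0.0921). In the short fraction neither gene passed (limma adjusted p = 0.148 and 0.665). There Pcgf2 was at 7.57% ± 4.06 in induced and 1.37% ± 1.31 in control mice, and Aebp2 at 5.86% ± 1.02 and 5.32% ± 0.887 (SD, n = 3 each). The count of further Polycomb genes that rose was 5 without control mouse 1, 2 or 3 and 13 without induced mouse 1 in the short fraction. In the long fraction 2 rose without control mouse 1, 2 or 3, and without control mouse 2 a further gene was lower. Over all short-fraction genes, 2220 to 2301 rose without a control mouse and 3053 without induced mouse 1, against 2765 with all libraries. Over all long-fraction genes, 902 to 953 rose without a control mouse, against 1421.

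Bcor, an X-linked corepressor gene of a PRC1 variant, was at 50.29%, 42.77% and 49.00% in induced mice and 15.28%, 2.02% and 14.22% in control mice among short fragments, and it rose (limma adjusted p = 0.00444). Bcor did not pass among long fragments (difference 32.2 points, limma adjusted p = 0.173). Its levels there were 46.74%, 47.36% and 68.21% in induced mice and 33.19%, 0% and 32.45% in control mice, without overlap. Control mouse 2 was also the lowest control at the X-linked genes Bcorl1, Rbbp7 and Hcfc1 in each fraction, though not at Utx. It was at 0% for Rbbp7, a histone-binding PRC2 subunit, among long fragments, where the other controls were at 55.57% and 39.79% and the induced mice at 61.42%, 53.84% and 78.90%. Rbbp7 did not pass (limma adjusted p = 0.322). None of the 10 Polycomb genes lies on the X chromosome. Of the further Polycomb genes that are not X-linked, 7 of 29 rose among short and 6 of 21 among long fragments. Of all genes 27.6% and 23.2% rose.

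The Cbx genes of PRC1 differed among themselves. Cbx8, which lies next to Cbx2 on chromosome 11 among listed genes, was at 76.76%, 60.02% and 69.44% in induced mice and 45.76%, 40.71% and 40.33% in control mice among short fragments. It rose by 26.5 points, and among long fragments by 19.5 points, to 28.3% ± 5.82 in induced mice, against 8.75% ± 1.39 in control mice (limma adjusted p = 0.0169 and 0.0168; SD, n = 3 each). The short-fraction call was lost without induced mouse 3 or control mouse 1, 2 or 3 (adjusted p = 0.0640, 0.05295, 0.0727 and 0.0743), and the long-fraction call without control mouse 1, 2 or 3 (adjusted p = 0.0779, 0.0657 and 0.0759).

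Cbx6, next to Cbx7 on chromosome 15 among listed genes, was at 11.22%, 24.81% and 15.54% in induced mice and 0.07%, 0.23% and 0.04% in control mice among short fragments. It rose (limma adjusted p = 0.0316), and its call was lost without induced mouse 3 or control mouse 1, 2 or 3 (adjusted p = 0.0841, 0.112, 0.109 and 0.112). No test compared one Cbx gene with another.

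**Figure D4:**
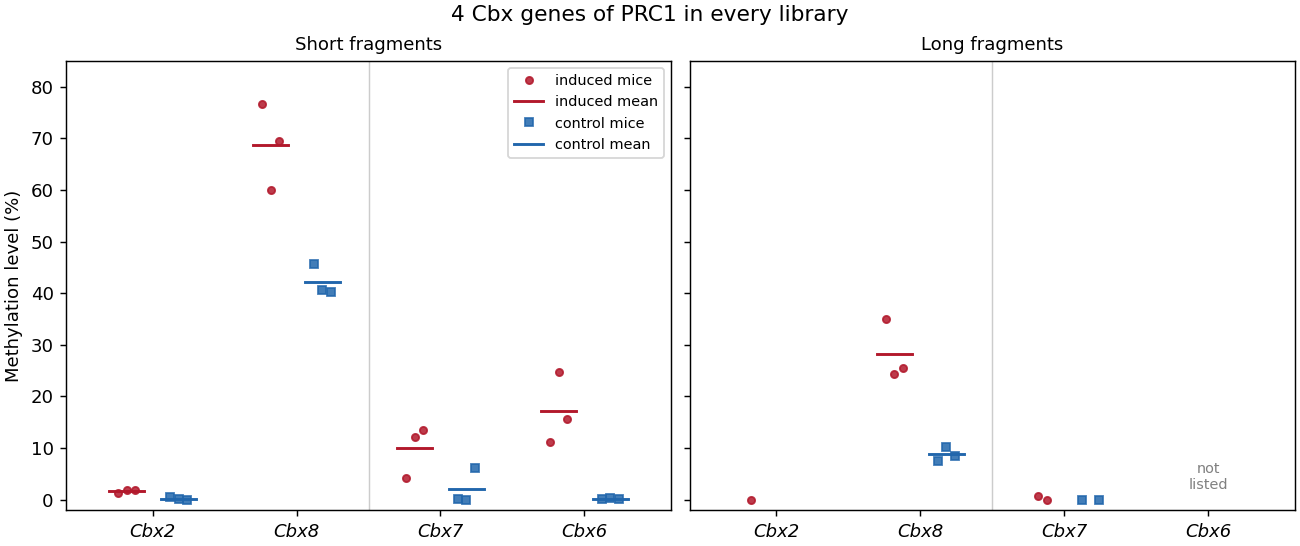
Methylation level (%) of 4 Cbx genes in each of 3 induced and 3 control mice, for short (left) and long (right) fragments; points are mice, lines are means of 3 mice, and the grey line parts genes of chromosome 11 (left) from those of chromosome 15 (right). Cbx8 runs from 60.02% to 76.76% in induced mice among short fragments, while Cbx2 lies at or under 1.88% in every library that listed it, only 1 of them of long fragments.

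Genes of the opposing trithorax group, which keep developmental genes active, were mostly near 0. Of 32 names 23 were in the files. Among short fragments 1 of 22 rose, where 27.6% of all genes did. It was Utx (now Kdm6a), an X-linked gene for a demethylase that removes the PRC2 mark, at 2.76% ± 0.615 in induced and 0.287% ± 0.202 in control mice (limma adjusted p = 0.00729). Utx did not pass among long fragments (limma adjusted p = 0.584). Among long fragments 1 of 15 rose, where 23.2% of all genes did. It was Mll1 (now Kmt2a), an H3K4 methyltransferase gene, at 0.903% ± 0.233 in induced and 0.05% ± 0.0866 in control mice (SD, n = 3 each, limma adjusted p = 0.0162). Mll1 no longer passed when control mouse 1, 2 or 3 was left out (limma adjusted p = 0.0568, 0.0749 and 0.0755), and it did not pass among short fragments (limma adjusted p = 0.140). The list had a median change of 0.0467 points among short and 0.123 points among long fragments.

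Of the trithorax group, Hcfc1, an X-linked COMPASS cofactor gene, was at 51.0% ± 11.4 in induced and 25.2% ± 25.3 in control mice, and Cxxc1, whose product binds unmethylated CpGs, at 25.7% ± 12.5 and 11.6% ± 5.315 among short fragments. Neither passed (limma adjusted p = 0.354 and 0.301). Among long fragments Paxip1, another COMPASS cofactor gene, Cxxc1 and Smarca2, a SWI/SNF ATPase gene, had differences of 2.10, -1.29 and 1.24 points and did not pass.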

How the data were processed

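Per the file headers, the authors deposited a methylation fraction for each gene and each of its RefSeq promoters in every library, and it was turned into percent here. How reads were aligned, to which build, over what promoter window and with what coverage filter is not given in the sources used here. Genes listed in all 6 libraries of a fraction were compared between induced and control mice by fitting percent levels with lmFit and eBayes of limma 3.58.1 (R 4.3.3), with Benjamini-Hochberg adjustment over all genes of a fraction and a threshold of 0.05. "Rose" and "fell" mean past that threshold, and 95% intervals are limma's, unadjusted. The mice are separate animals, and exact permutation of 3 against 3 cannot go below p = 0.10. The mouse number ties the 2 fractions of a mouse, per the labels. A fit over the 5309 genes in all 12 libraries took the mouse as a random block (statmod 1.5.0, consensus correlation 0.0674). Libraries of a mouse deviated with correlations across genes of 0.0559 to 0.613, and libraries of different mice of a group at -0.486 to 0.314. Members and lists were chosen with earlier results of these data known. List symbols were matched by NCBI Gene ID through a RefSeq table of GRCm38.p6, which held 12076 of the 12098 IDs. The genes named were all 10 members; for further Polycomb and trithorax genes, those past the threshold and the 3 largest absolute differences in each fraction; for developmental targets, the 4 largest absolute differences; and the 3 genes nearest by Euclidean distance to the member with the largest difference. One gene that this rule names is not reported here. The fits were tested on simulated data. Of genes above 0 in either library, at most 1.52% had equal values in any pair of libraries of 1 fraction. Figures used Python 3.11.15 and matplotlib 3.10.9. Alternatives were another scale, variance model, gene filter, centring, block and the omission of each library.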

Additional observations from a re-analysis of the deposited data

How the results depend on the processing

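Induced and control mice of 1 number share only that number: same-numbered libraries had deviations correlated across genes at -0.0499 to 0.0736. With the number as a replicate block, 0 Polycomb genes passed in the short fraction, where Cbx2 had limma adjusted p = 0.0751. None passed in the long fraction, and 0 by promoter row. Of all genes 2114 passed in the short fraction and 652 in the long fraction. The main fits called 1 and 0 Polycomb genes and 2773 and 1422 genes. M values (log2 ratios of methylated to unmethylated share) gave 2 in the short fraction (Cbx2 and Rnf2) and 1 in the long fraction (Jarid2), by gene and by promoter row, and 1 (Jarid2) whose change differed between the fractions, against 0. A mean of at least 5% left 2 short-fraction members, of which 0 passed, and removed all but Ring1 from the long fraction. Centred libraries called 5212 short-fraction genes (2844 higher, 2368 lower) and 3566 long-fraction genes (1628 higher, 1938 lower), and 4 and 3 Polycomb genes, of which 1 and 0 were higher. It also gave 8 higher and 8 lower further Polycomb genes and 1 higher and 10 lower trithorax genes among short fragments, and 6 and 7, and 0 and 6, among long ones. With all libraries and no centring, which takes a constant off every gene, none of these lists had a lower call in the fits of single fractions. In that setting the difference was -0.39 points for Bmi1, -0.17 for Rnf2 and -0.37 for Suz12 in the short fraction, and -0.46 for Bmi1 and -0.0917 for Ezh2 in the long fraction. One fit over both fractions tested 5309 genes and 7 Polycomb genes, without Cbx2, in place of 10027 and 10 among short fragments. It called 1575 short-fraction and 1668 long-fraction genes, and 0 short-fraction and 1 long-fraction Polycomb genes (Jarid2).

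Leaving out 1 library gave 1 to 2 Polycomb genes in the short fraction and 0 to 1 in the long fraction, likewise by promoter row, and 0 to 1 whose change differed between fractions. Long-fraction genes called ranged from 904 to 1560 and short-fraction genes from 2229 to 3061. Differences that changed sign ranged, in the short fraction, from -0.075 to 0.0833 points for Bmi1, -0.253 to 0.0367 for Eed, -0.202 to 0.0333 for Ezh1, -0.0267 to 0.0117 for Jarid2 and -0.0417 to 0.0633 for Suz12. In the long fraction they ranged from -1.09 to 3.55 points for Ring1, -0.04 to 0.015 for Rnf2, -4.28 to 0.08 for Eed, -0.162 to 0.0133 for Suz12, -2.09 to 9.34 for Paxip1 and -5.37 to 1.19 for Cxxc1. No read depth is given, so differences near 0 cannot be set against counting error.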

Other observations

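Of the tested genes that lay next to a Polycomb gene, 5 of 17 rose among short fragments (29.4%), beside 27.6% of all genes, and 4 of 10 (40%) among long fragments, beside 23.2%. The short-fraction share is near that of all genes. These counts include Cbx8, which rose in both fractions, and Cbx6, which rose among short fragments. Both are further Polycomb genes, so their rises are the same calls as those given above. Neighbours were taken as the listed genes before and after each on its chromosome in RefSeq, and they were looked at after the values of the Polycomb genes were known. Ramp2, a receptor partner gene beside Ezh1, was at 68.76%, 88.77% and 82.59% in induced mice and 0%, 4.76% and 0% in control mice among short fragments, and it rose in both fractions (limma adjusted p = 0.000923 and 0.000863). Ezh1 itself was at or under 0.16% in induced mice.

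Pdgfb, a growth factor gene beside Cbx7, was at 14.54%, 18.60% and 21.85% in induced mice and 0%, 0% and 0.09% in control mice among short fragments, and it rose in both fractions (limma adjusted p = 0.00292 and 0.0382). H2-Ke6, beside Ring1, rose among short fragments to 9.09% ± 2.10 in induced mice, against 3.16% ± 0.356 in control mice, and BC061194, beside Bmi1, rose among long fragments to 67.3% ± 9.33 in induced mice, against 11.4% ± 15.6 in control mice (SD, n = 3 each; limma adjusted p = 0.0211 and 0.0198). No neighbour of Ezh2, Eed, Suz12 or Rnf2 passed where it was tested (Cul1, Pdia4, l7Rn6, Picalm, Utp6, Crlf3, 1190005F20Rik and Fam129a), and the group means in those tests were at or under 0.637%. Ezh2, Eed, Suz12 and Rnf2 were grouped here after the values of their neighbours were known. Beside the other Polycomb genes, Cntnap1, Dtnbp1, Commd3, H2-K1 and Enpp7 did not pass where tested either. Whether neighbours and Polycomb genes differ in change was not tested.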
